A study of Mus musculus with 12 samples.

Results

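The nuclear-encoded subunits of the respiratory chain and of ATP synthase were followed in total RNA from mouse brain and liver. Members were the genes whose symbol starts with Ndufa, Ndufb, Ndufc, Ndufs, Ndufv, Uqcr, Cox4i, Cox5, Cox6, Cox7, Cox8 or Atp5, together with Sdha, Sdhb, Sdhc, Sdhd and Cyc1. Symbols with Ndufaf (8 assembly factors) and with -ps (9 genes) were dropped, which left 91 members of 55450 genes in the table. By symbol, 41 members belong to complex I, 4 to complex II, 9 to complex III, 19 to complex IV and 18 to ATP synthase (complex V). The animals were male Mus musculus of 7 to 9 weeks. They were labelled wild-type (the titles call these libraries flx) or vaultrc5-/-, a knockout of Vaultrc5, the gene of a small non-coding vault RNA. Each tissue had 3 libraries of each genotype, which makes 4 groups. The labels do not say whether these came from separate animals, so p-values measure the spread between libraries, which may be technical. The labels used here name no strain, no Cre line and no number of founders.

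The respiratory chain passes electrons from NADH (complex I) and succinate (complex II) through complex III to oxygen at complex IV. The proton gradient that this builds across the inner mitochondrial membrane drives ATP synthase. Most subunits are encoded in the nucleus and imported, and they assemble with a small core that mitochondrial DNA encodes. Liver and brain are both rich in mitochondria: neurons depend on oxidative phosphorylation for ion pumping, and hepatocytes for biosynthesis. Several complex IV subunits have paired isoforms, a widespread form and a form known from muscle, lung or testis.

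Libraries held between 14844971 and 27155480 counts. The members took 0.462% to 0.543% of the counts in brain libraries and 0.510% to 0.666% in liver libraries. Counts of Vaultrc5 were 4, 1 and 4 in wild-type brain and 33, 39 and 48 in wild-type liver. All 6 knockout libraries were at 0. Neuronal markers summed to between 2656 and 3488 counts per 1e6 (CPM) in brain, and hepatocyte markers to between 57610 and 92740 CPM in liver. Kupffer cell markers were at or under 3 counts in every brain library (4 of 4 markers). Summed hepatocyte markers, which include Ttr, ran from 0.615 to 438 CPM in brain. Cerebellar markers ran from 44.8 to 877 CPM across brain libraries, so these did not hold the same mix of regions.

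Of the 91 members, 87 are annotated as protein coding and 4 as processed pseudogenes (Ndufa11b, Ndufb4c, Ndufs6b and Cox6c2). The symbol Atp5o stands for 2 annotated genes. A second Atp5o entry and Cox8c, a testis isoform, were at 0 in every library. Counts were not whole numbers in at least 1 library for 27 members (29.7%, against 17.95% of all genes with a count), as arises when reads are shared between near-identical sequences. Ndufb4c, annotated as a pseudogene of the complex I subunit Ndufb4, took 58.8% to 69.8% of the summed counts of the pair. That sum was whole in 12 of 12 libraries, within 0.011 counts. Values of Ndufb4 and Ndufb4c are therefore uncertain as to which copy the reads came from.

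Promoter sequence is shown for 4 members to set a subunit with a large tissue difference and a widespread isoform beside a member that did not pass and a muscle isoform that was not tested. RefSeq (GRCm38.p6, the build of the files) gave a promoter of 300 bases, from 250 before to 50 after the start, for 67 of 86 protein-coding member symbols. Sdhd, the membrane anchor of complex II, had the largest difference among members lower in brain that have an entry. Its promoter is at chr9:50603800-50604099. Cox6a1 (chr5:115348909-115349208) is the widespread isoform of a complex IV subunit. Cox8a (chr19:7217567-7217866) did not pass the test between tissues. Cox8b (chr7:140900397-140900696) is the muscle isoform of Cox8a. All 4 are on the minus strand, written 5′ to 3′ in the sense of the gene. Capitals mark matches to 4 short motifs on either strand: the NRF1 core GCATGCG, the ETS core CCGGAAG, the YY1 core AAGATGG and the TATA box TATAAA.
Sdhd: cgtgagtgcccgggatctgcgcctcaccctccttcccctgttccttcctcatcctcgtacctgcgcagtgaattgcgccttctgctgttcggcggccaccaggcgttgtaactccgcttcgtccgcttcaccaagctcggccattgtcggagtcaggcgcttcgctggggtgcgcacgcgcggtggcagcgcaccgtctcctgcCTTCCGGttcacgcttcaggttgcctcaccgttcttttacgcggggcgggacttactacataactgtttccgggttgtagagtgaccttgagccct
Cox6a1: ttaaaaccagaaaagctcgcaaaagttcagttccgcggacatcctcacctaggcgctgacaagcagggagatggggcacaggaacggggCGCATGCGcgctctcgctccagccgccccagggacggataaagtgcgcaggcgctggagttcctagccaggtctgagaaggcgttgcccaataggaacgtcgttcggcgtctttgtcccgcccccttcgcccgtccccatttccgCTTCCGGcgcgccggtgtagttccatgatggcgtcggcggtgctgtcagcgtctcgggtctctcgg
Cox8a: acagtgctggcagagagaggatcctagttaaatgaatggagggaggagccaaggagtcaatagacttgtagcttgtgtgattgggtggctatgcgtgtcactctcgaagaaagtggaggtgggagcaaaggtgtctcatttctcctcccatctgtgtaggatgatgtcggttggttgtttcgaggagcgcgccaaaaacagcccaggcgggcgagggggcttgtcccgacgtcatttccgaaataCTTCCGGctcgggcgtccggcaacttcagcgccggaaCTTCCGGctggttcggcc
Cox8b: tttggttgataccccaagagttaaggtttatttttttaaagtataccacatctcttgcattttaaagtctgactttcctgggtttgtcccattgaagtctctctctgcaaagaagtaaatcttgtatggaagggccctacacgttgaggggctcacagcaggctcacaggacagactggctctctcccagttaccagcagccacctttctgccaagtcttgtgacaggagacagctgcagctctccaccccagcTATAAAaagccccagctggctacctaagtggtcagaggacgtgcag

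Sdhd held 1 ETS core, Cox6a1 an ETS core and an NRF1 core that reads in both directions with overlap, Cox8a 2 ETS cores, and Cox8b only the letters of the TATA box. Those letters in Cox8b lie at offset 4, past the annotated start and not before it. The Cox8b promoter had 2 CG dinucleotides, against 29 in Sdhd, 32 in Cox6a1 and 19 in Cox8a. Over the members with a promoter, 16.4% held the NRF1 core, against 4.02% of all 27025 genes in the promoter table. The ETS core was in 23.9% of member genes against 9.93% of all, the YY1 core in 14.9% against 7.28%, and the TATA box in 10.4% against 15.7%. NRF1 and the ETS factor GABPA are known regulators of respiratory chain genes. The median member promoter had 19 CG dinucleotides and 57.3% GC, and the median of all promoters had 7 and 52.7%. A match describes letters in the window and was not tested as a binding site. Uqcrq and Cox6a2 had no entry.

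In wild-type mice, respiratory chain transcripts were lower in brain than in liver across all 5 complexes when libraries were scaled by the trimmed mean of M values (TMM). Of 83 members tested, 76 fell past an adjusted p of 0.05 (edgeR quasi-likelihood test, Benjamini-Hochberg over 18850 genes), 2 were higher in brain and 5 did not pass. Tissue differences are common in these data: 78.6% of all genes tested were called, 34.7% lower in brain and 43.9% higher. By ranges, 77 members were lower in brain without overlap (36.6% of all genes) and 3 higher (45.8%). The median log2 fold change of the members, brain against liver, was -1.12, and that of all genes tested 0.21. This count depends on the scaling: with library totals in place of TMM, 40 members were called lower (21.2% of all genes) and 6 higher (61.7%), with a median of -0.28, while the median of all genes rose to 1.05. The members lay 1.33 below the median of all genes on the log2 scale (-1.33 in each scaling, since a scaling shifts all genes alike). Single values below are on the TMM scale and are not corrected for the median of all genes. The 8 members not tested had too few counts: Ndufa11b, Ndufs6b, Cox6c2, Cox6b2, Cox7b2, Cox8b, Cox8c and the second Atp5o entry. Fewer mitochondria-rich cells and less RNA per cell cannot be told apart in bulk tissue.

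**Figure D1:**
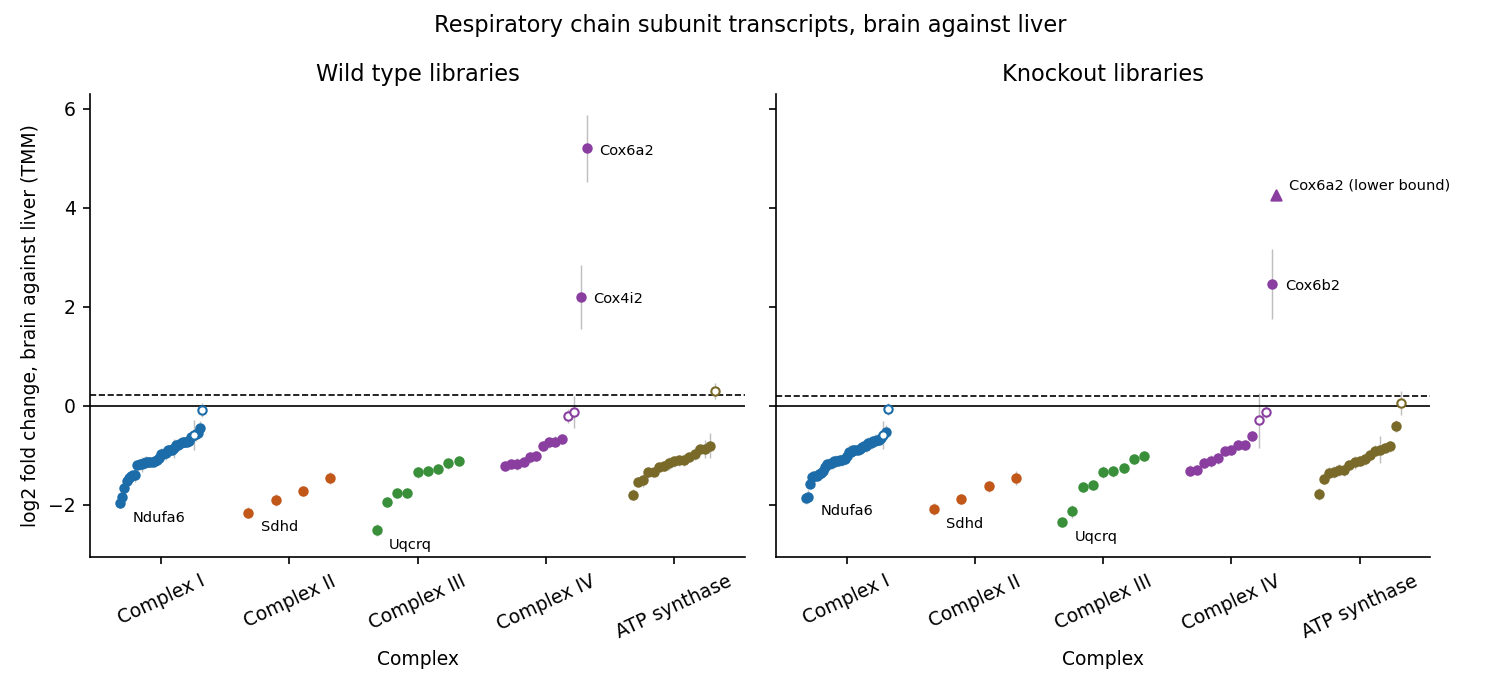
Log2 fold change of each tested member, brain against liver, by complex (y axis, TMM scaling), in wild-type libraries (left) and knockout libraries (right), each with its standard error in grey. Filled points passed an adjusted p of 0.05, open points did not, the dashed line is the median of all genes tested, and the triangle is the lower bound for Cox6a2, which had 0 counts in knockout liver. Nearly all members lie below 0, with Uqcrq lowest at -2.50 in wild type, and the exceptions above 2 are complex IV isoforms.

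Complex II, succinate dehydrogenase, was the complex with the lowest median (-1.81), and all 4 of its subunits fell, also with library totals. Sdhd, a membrane anchor subunit, measured 24.6, 25.6 and 29.0 CPM in the wild-type brain libraries and 118, 116 and 120 CPM in the wild-type liver libraries. The ranges are far apart, and the fold was 4.45 in favour of liver (log2 fold change -2.15, SE 0.10, adjusted p = 8.33e-07 by edgeR). Sdhc, the other anchor subunit, measured 32.2, 24.9 and 31.3 CPM in brain and 114, 107 and 110 CPM in liver (-1.90, SE 0.13). The catalytic head showed a smaller difference: Sdha, the flavoprotein that oxidises succinate, had -1.46 (SE 0.12) and Sdhb, its iron-sulfur partner, -1.72 (SE 0.10).

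Complex III, which passes electrons from ubiquinol to cytochrome c, had a median of -1.34, and all 9 members fell, also with library totals. Uqcrq, a small subunit, measured 21.9, 21.7 and 24.9 CPM in wild-type brain and 143, 129 and 119 CPM in wild-type liver. Its 5.67-fold excess in liver was the largest among the members (log2 fold change -2.50, SE 0.12, adjusted p = 7.94e-07 by edgeR). Uqcrb, another small subunit, measured 31.0, 31.7 and 34.1 CPM in brain and 125, 117 and 131 CPM in liver (-1.94, SE 0.10). The subunits that carry the redox centres, Cyc1 (cytochrome c1) and Uqcrfs1 (the Rieske iron-sulfur protein), had -1.34 and -1.76.

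Complex I, the NADH dehydrogenase, had 39 members tested, of which 37 fell and 2 did not pass, with a median of -0.98; with library totals 15 were lower and 2 higher. The 7 nuclear-encoded core subunits, which bind flavin and the iron-sulfur clusters, all fell, with a median of -1.12, while with library totals Ndufs1, Ndufs7 and Ndufv2 lay above 0 (0.12, 0.04 and 0.09). Of the 29 accessory subunits, which surround that core, 28 fell. Ndufa6, an accessory subunit, measured 23.9, 21.9 and 26.6 CPM in brain and 98.3, 89.9 and 95.1 CPM in liver (-1.96, SE 0.11, adjusted p = 1.87e-06 by edgeR). Ndufb2, an accessory subunit of the membrane arm, did not pass: it measured 26.4, 19.8 and 26.1 CPM in brain and 27.5, 26.0 and 24.1 CPM in liver, with overlapping ranges (-0.09, SE 0.14, adjusted p = 0.565 by edgeR). With library totals it was higher in brain (0.75, adjusted p = 0.00219 by edgeR).

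ATP synthase had 17 members tested and a median of -1.12. Of these 16 fell, and with library totals 8 were lower and 1 higher. The 5 subunits of the catalytic F1 part lay between -1.54 and -1.12, and the 4 of the peripheral stalk between -1.33 and -0.88. Atp5s, which by background is a coupling factor and not a structural subunit, did not pass: it measured 6.06, 7.13 and 6.45 CPM in brain and 5.18, 5.28 and 5.50 CPM in liver (0.31, SE 0.16, adjusted p = 0.111 by edgeR). All 3 of its brain libraries lay above the liver libraries, and with library totals it was called higher (1.14, adjusted p = 0.000255 by edgeR).

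Complex IV, cytochrome c oxidase, had a median of -0.77 over 14 tested members, and it held both members called higher in brain. The median includes Cox6a2 and Cox4i2, which passed the filter on low counts only through brain; over its 10 widespread isoforms it was -1.025. With library totals 4 of its 14 tested members were lower and 3 higher. Of the widespread isoforms, 9 fell, from Cox6b1 (-1.22) to Cox4i1 (-0.67). Cox8a, the widespread form of the smallest subunit, did not pass: it measured 89.3, 114 and 97.8 CPM in brain and 129, 119 and 102 CPM in liver, and the ranges overlap (-0.21, SE 0.14, adjusted p = 0.190 by edgeR). Without wild-type brain replicate 2 the Cox8a value was -0.37 and passed (adjusted p = 0.0374 by edgeR). With library totals some of these lay above 0, among them Cox4i1, Cox7a2 and Cox8a (0.17, 0.03 and 0.63).

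Levels can be compared between genes per length, as RPKM (CPM divided by the exon length in kilobases). In wild-type brain, Cox8a had the highest level of all members (162 ± 20.2 RPKM, SD, n = 3), ahead of Atp5b (101 ± 5.17) and Atp5a1 (100.4 ± 5.67), the beta and alpha subunits of F1. Atp5b and Atp5a1 did not differ beyond their spread. With the length of the longest transcript in place of all exons, Atp5b led (223 ± 11.4 RPKM) and Cox8a followed (182.5 ± 22.8). In wild-type liver, Atp5a1 led (255 ± 7.98 RPKM), followed by Cox6b1 (232 ± 14.4) and Atp5b (221 ± 5.02). The spread of Cox6b1 covers Atp5b. With the longest transcript, Atp5b led in liver too (489 ± 11.1 RPKM), ahead of Atp5a1 (299.5 ± 9.35), so the order of single members depends on the length used. Within complex II the order was the same in each tissue, with Sdha at 42.7 ± 3.37 RPKM in brain and 118 ± 7.33 in liver, then Sdhd, Sdhb and Sdhc. With the length of the longest transcript, Sdhb stood above Sdhd in brain. Within complex III, Uqcr11 (47.5 ± 3.05 RPKM in brain and 162 ± 7.36 in liver) and Uqcrb (36.8 ± 1.85 and 142 ± 8.35) led in each tissue. In complex I, Ndufb9 (36.2 ± 1.00 RPKM in brain and 96.4 ± 1.98 in liver) and Ndufa4 (33.5 ± 2.76 and 89.0 ± 11.4) were among the 3 highest by the length of all exons, with the uncertain Ndufb4c. Ndufa4 is counted here under complex I by its symbol and is known as a subunit of complex IV. Among the 79 members with a mean of at least 50 counts, RPKM ranged 50.5-fold in brain and 97.9-fold in liver.

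**Figure D2:**
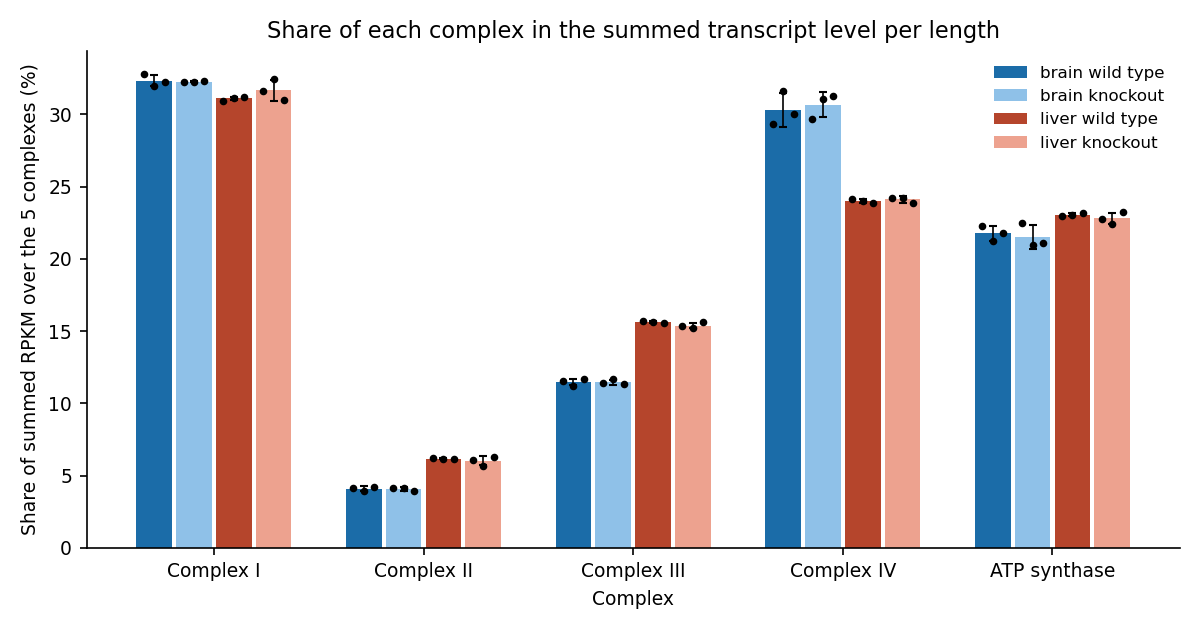
Share of each complex in the RPKM summed over the 5 complexes (y axis, percent), with bars for the group mean, error bars for the SD and points for the 3 libraries of each group. Complex IV takes a larger share in brain than in liver (30.3% against 24.01% in wild type), and complexes II and III a smaller share.

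Because shares are taken within a library, they do not depend on the scaling between libraries. Complex IV made up 30.3% ± 1.17 (SD, n = 3) of the summed RPKM in wild-type brain and 24.01% ± 0.160 in wild-type liver. Complex III made up 11.5% ± 0.224 in brain and 15.6% ± 0.0611 in liver, and complex II 4.09% ± 0.159 and 6.17% ± 0.0379. Complex I (32.3% ± 0.391 and 31.1% ± 0.133) and ATP synthase (21.8% ± 0.50 and 23.1% ± 0.128) differed less. Wild-type brain and liver libraries did not overlap in any of the 5 shares, and no test was run on them. In the knockout, complex IV made up 30.7% ± 0.859 in brain and 24.1% ± 0.217 in liver. There the tissues overlapped for complex I (32.2% to 32.3% in brain, 31.0% to 32.4% in liver) and for ATP synthase (20.9% to 22.5% and 22.4% to 23.2%). With the length of the longest transcript they did not overlap, for complex I (30.05% to 30.13% and 28.84% to 30.03%) or for ATP synthase (25.46% to 27.21% and 27.4% to 28.22%).

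Subunit c of ATP synthase, which forms the rotating ring, is made from 3 genes with the same mature protein. Atp5g3 made up 68.9%, 64.1% and 68.7% of their summed RPKM in the wild-type brain libraries and 78.6%, 77.3% and 79.3% in the wild-type liver libraries. Atp5g1 took 23.6%, 24.5% and 24.3% in the brain libraries and 16.1%, 16.8% and 16.8% in the liver libraries. The log2 fold change in CPM was -1.79 (SE 0.11) for Atp5g3 and -1.03 (SE 0.10) for Atp5g1. These shares depend on the length used: with the longest transcript Atp5g1 took 11.7% in brain and 7.62% in liver, and by counts alone 42.4% and 31.2%, a difference of 4.12 and 11.2 percentage points. By the length of all exons, the Atp5g3 share was lower in all 3 brain libraries than in any liver library, and the Atp5g1 share higher (difference of -11.2 and 7.57 percentage points). An exact permutation test gave p = 0.1 for each, two-sided, the smallest that 3 against 3 can give (adjusted over 9 shares, 0.1). Atp5g2 was the minor form, at 8.62% ± 2.42 in brain and 5.02% ± 0.986 in liver. Its fall in CPM (-0.80, SE 0.25, adjusted p = 0.0179 by edgeR) did not pass without wild-type brain replicate 1 or 3 or wild-type liver replicate 1 or 2, with adjusted p between 0.0514 and 0.0623.

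**Figure D3:**
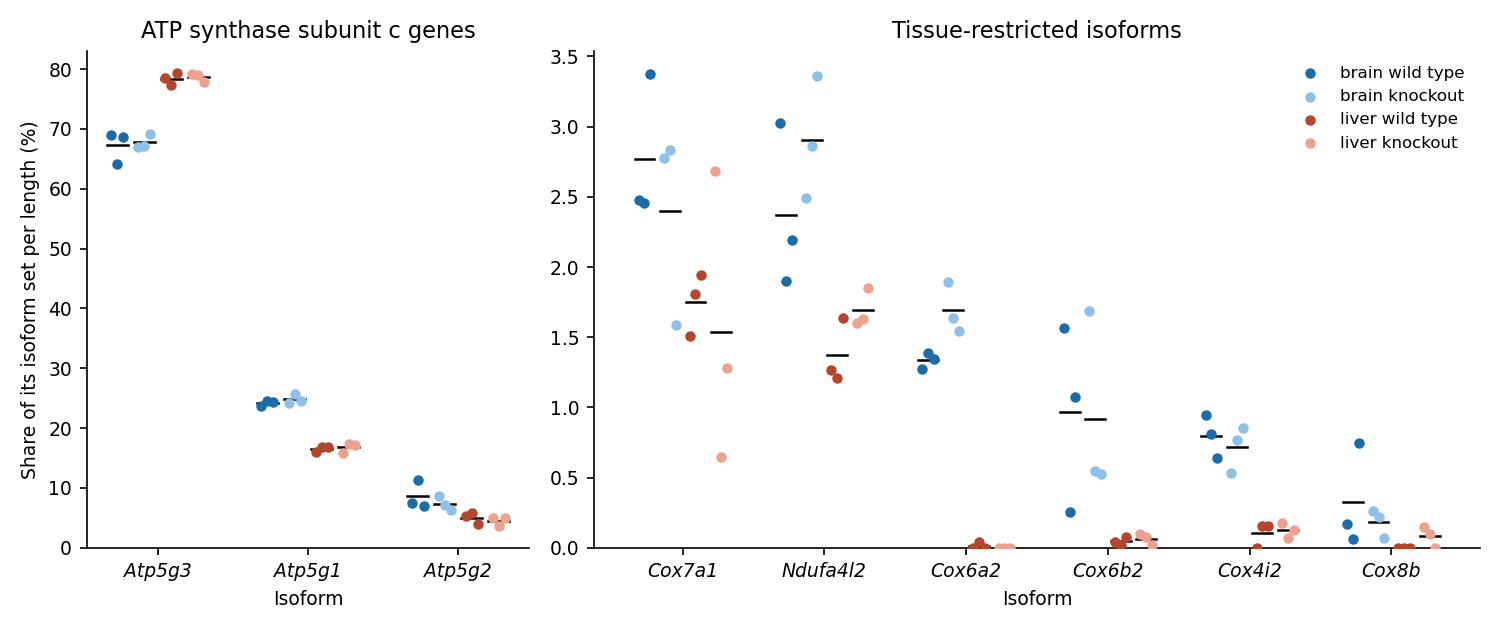
Share of each isoform in the summed RPKM of its isoform set (y axis, percent), for the 3 subunit c genes (left) and 6 tissue-restricted isoforms (right), with points for libraries and lines for group means. Atp5g3 sits higher in liver and Atp5g1 in brain, and the tissue-restricted isoforms stay at or under 3.37% of their sets in every library.

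The tissue-restricted isoforms were minor in each tissue, and 2 of them, Cox6a2 and Cox4i2, were called higher in wild-type brain. Cox6a2, the heart and skeletal muscle form of Cox6a, had 17, 22 and 21 counts in the wild-type brain libraries and 0, 1 and 0 in the wild-type liver libraries. That is 48.5-fold per scaled library size, with an exact 95% interval of 8.38 to 1947 that covers counting error only (edgeR adjusted p = 2.13e-04). The liver side is 1 count, under the floor of 3 counts over the group (0.0527 CPM, against 0.852 CPM in brain). Cox6a2 made up 1.28%, 1.39% and 1.35% of Cox6a in brain. Cox4i2, the lung form of Cox4i, had 13, 12 and 10 counts in wild-type brain and 0, 3 and 3 in wild-type liver. It was called higher in brain (log2 fold change 2.19, SE 0.65, adjusted p = 0.0147 by edgeR). Both passed the filter on low counts only through brain, which fixed their direction.

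Cox6b2, a form known from testis, was below that filter in wild type, with 37, 7 and 29 counts in brain. It measured 1.64, 0.287 and 1.24 CPM in wild-type brain and 1.73, 0.573 and 0.542 CPM in knockout brain. Summed cerebellar markers in the same libraries were 877, 44.8 and 221.5 CPM in wild type and 842, 50.01 and 345.5 CPM in the knockout. In each genotype replicate 1 was highest in both measures, while knockout replicate 3 had the lowest Cox6b2 of its group without the lowest marker sum; the part of these markers was not tested. Testis germ cell markers were at 0 in all 12 libraries (5 of 5 markers). Cox7a1, a muscle form, measured 0.531, 0.533 and 0.769 CPM in wild-type brain and 0.619, 0.698 and 0.681 CPM in wild-type liver, and did not pass (adjusted p = 0.753 by edgeR). Ndufa4l2, a hypoxia-responsive relative of Ndufa4, measured 1.06, 0.697 and 0.897 CPM in brain and 1.41, 1.196 and 1.42 CPM in liver (-0.59, SE 0.30, adjusted p = 0.107 by edgeR). Cox7b2 had 3, 2 and 3 counts in wild-type brain and 0 in liver; in the knockout it had 3 counts in brain, all in replicate 1, and 0 in liver, so no difference was detectable there at this depth. Cox8b had 2, 1 and 10 counts in wild-type brain and 0 in liver, so its sum rests on replicate 3. In the knockout it had 7 counts in brain against 3 in liver, 1.96-fold with an exact 95% interval of 0.447 to 11.7 for counting error.

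The same tissue comparison in the knockout libraries, which share no library with the wild-type comparison, gave 76 members lower in brain, 2 higher and 5 not called of 83 tested (78.7% of all genes were called, 35.2% lower and 43.5% higher). By ranges 77 were lower without overlap (36.6% of all genes) and 2 higher (45.7%). With library totals 31 were called lower (20.6% of all genes) and 7 higher (62.1%). The median of the members was -1.09. Uqcrq again had the lowest value (-2.35, SE 0.10), followed by Uqcrb (-2.13, SE 0.13), Sdhd (-2.08, SE 0.12), Sdhc (-1.89, SE 0.10) and Ndufs6 (-1.87, SE 0.11), an accessory subunit of complex I. All 76 members called lower were lower in each genotype. Over the 82 members tested in each, Pearson's r of the log2 fold changes was 0.98, and over all 18380 genes tested in each it was 0.99, a description across genes. Cox6a2 had 68 counts in the 3 knockout brain libraries and 0 in liver, at least 19.01-fold higher against 3 counts over the group. Cox6b2 was also called (2.47, SE 0.71, adjusted p = 0.0136 by edgeR). It had 35, 13 and 12 counts in brain and 5, 3 and 1 in liver, so it passed the filter on low counts only through brain, which fixed its direction. Cox4i2 was not tested there. Ndufb2, Cox8a, Ndufa4l2, Atp5s and Cox7a1 were not called, as in wild type.

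Other genes of the pathway, from lists taken by their known role, were set beside the members for wild-type brain against liver. The counts of these lists stand against 34.7% of all genes lower and 43.9% higher with TMM, and 21.2% and 61.7% with library totals. Of the 13 subunits that mitochondrial DNA encodes, 11 fell (median -1.40), and 7 with library totals: mt-Co1, the catalytic subunit of complex IV, measured 8585 ± 408 CPM in brain and 27140 ± 2230 in liver (SD, n = 3). Of 45 assembly factors, 29 fell and 5 rose. Sco2, which delivers copper to complex IV, measured 4.32 ± 0.274 CPM in brain and 55.7 ± 8.31 in liver. Ttc19, which acts on complex III, was higher in brain, at 61.2 ± 7.07 against 22.9 ± 1.504 CPM. With library totals 10 assembly factors were lower and 17 higher. Of 14 regulators, 7 fell and 3 rose, against 3 lower and 6 higher with library totals. Gabpa, the DNA-binding part of an ETS factor, measured 20.8 ± 3.48 CPM in brain and 82.0 ± 5.98 in liver. The coactivator gene Ppargc1a went the other way, at 53.3 ± 1.87 and 17.2 ± 5.38 CPM, and so did the nuclear receptor gene Esrrg, at 41.7 ± 9.42 and 5.52 ± 0.902 CPM.

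Of 13 citric acid cycle genes, 9 fell and 2 rose, against 4 lower and 6 higher with library totals. Suclg2, the GTP-forming subunit of succinyl-CoA ligase, measured 9.11 ± 1.02 CPM in brain and 224 ± 13.7 in liver. Idh3a, a subunit of isocitrate dehydrogenase, was higher in brain, at 98.9 ± 7.52 against 27.5 ± 1.84 CPM. Of the 7 enzymes tested that feed electrons into ubiquinone from other sources, 5 fell, with a median of -3.81, and with library totals 5 were lower and 2 higher. Etfdh, the ubiquinone oxidoreductase of fatty acid oxidation, measured 20.1 ± 1.86 CPM in brain and 282 ± 6.30 in liver. Of the 8 mobile carriers and neighbouring genes tested, 3 fell and 2 rose, against 1 lower and 7 higher with library totals. The 2 main carriers of ATP and ADP exchanged places: Slc25a4 measured 215 ± 15.4 CPM in brain and 4.40 ± 0.225 in liver, and Slc25a5 79.2 ± 8.63 and 259 ± 17.3. All genes named in these lists passed an adjusted p of 0.05 in edgeR and kept their direction with library totals.

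Loss of Vaultrc5 changed no member past the threshold in either tissue. In brain, 84 members were tested and 0 were called (0% of 18075 genes; the smallest adjusted p of a member was 1.00 by edgeR). With an unadjusted p under 0.05 there were 0 members, against 0.675% of all genes (0.315% lower and 0.36% higher), and DESeq2 called 0 members. In liver, 81 members were tested and 0 were called (0% of 15329 genes, smallest adjusted p of a member 0.992 by edgeR). The smallest adjusted p of any gene in that fit was 0.333 (edgeR). Vaultrc5, at 33, 39 and 48 counts against 0, was therefore not called either, and a count of 0 does not exclude a change in the members. DESeq2 called 0 members, with 7 at an unadjusted p under 0.05, against 2.77% of all genes in that fit. In edgeR 10 members had an unadjusted p under 0.05, all lower in the knockout, against 3.50% of all genes (1.69% lower and 1.81% higher). The interaction of genotype and tissue also called 0 of 84 members (0% of 20141 genes). A single member, Atp5k, had an unadjusted p under 0.05 there, against 2.43% of all genes (1.11% lower and 1.32% higher). DESeq2 called 0 members in the interaction too, with 0 at an unadjusted p under 0.05.

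The members nevertheless lay mostly on the low side in the knockout, by small amounts. In brain, 74 of 84 had a log2 fold change below 0, against 51.7% of all genes, and in liver 67 of 81, against 48.7%. The median was -0.10 in brain (all genes -0.01) and -0.11 in liver (all genes 0.01). In brain 15 members were lower in all 3 knockout libraries than in any wild-type library (2.31% of all genes were) and 1, Cox6a2, was higher (1.93%). In liver 27 were lower without overlap (5.45% of all genes) and 2 higher (4.16%), Ndufb4c and Ndufa8. The liver count of higher members was 6 without knockout replicate 2 (8.34% of all genes) and 0 with library totals. The brain count of higher members was 2 without wild-type replicate 1 (7.8% of all genes) or knockout replicate 2 (5.07%) and 3 without wild-type replicate 3 (3.94%). Members share each library, so these counts are not independent observations, and they were not tested. Some lists of cell type markers also had summed levels that did not overlap between genotypes, higher in the knockout. In brain the 4 endothelial markers summed to 44.55 to 47.09 CPM in the knockout and 37.2 to 44.3 CPM in wild type; of the 4, only Pecam1 did not overlap by itself. In liver the 4 red cell markers summed to 34.4 to 50.1 CPM against 13.4 to 30.9 CPM, and of these Hba-a2 and Hbb-bs did not overlap. Striated muscle markers in liver were apart by single counts in knockout replicate 1 (2 counts, against 1 each in wild-type replicates 2 and 3). They reached 0.338 CPM in knockout replicate 2 and 4.77 CPM in knockout replicate 3, where Acta1 had 31 counts. The part of these in the members was not tested.

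**Figure D4:**
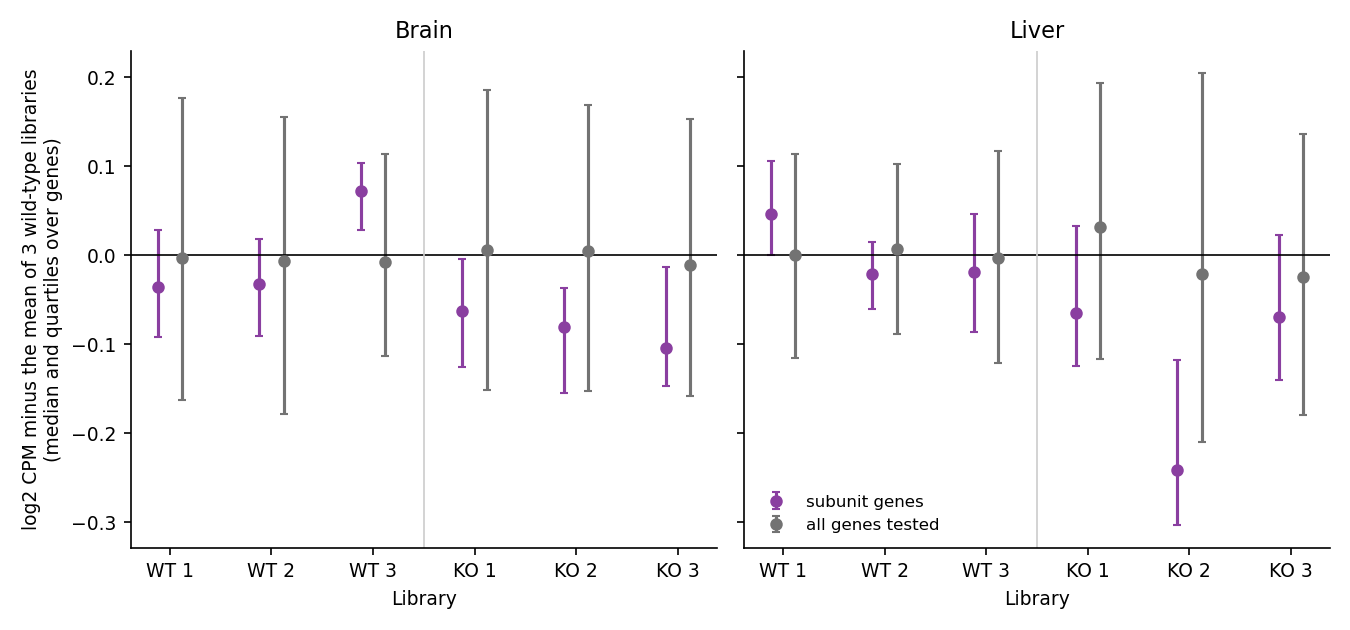
Median over genes of log2 CPM minus the mean of the 3 wild-type libraries of the tissue (y axis), with quartiles as bars, for the members (purple) and all genes tested (grey), by library. The medians of the members in wild-type (WT) and knockout (KO) libraries do not overlap in either tissue, liver knockout replicate 2 is lowest at -0.24, and the medians of all genes stay near 0.

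By library, the median of the members relative to the wild-type mean of the tissue was -0.04, -0.03 and 0.07 on the log2 scale in wild-type brain and -0.06, -0.08 and -0.10 in knockout brain. In liver it was 0.05, -0.02 and -0.02 in wild type and -0.06, -0.24 and -0.07 in the knockout. Knockout replicate 2 stood apart in liver, in each of the 5 complexes (between -0.20 in complex I and -0.35 in complex II). That library also had the lowest summed hepatocyte markers (57610 CPM, against 71290 to 92740 in the others), a sum made mostly of Alb (40240 CPM). Alb, Ttr and Cps1 were lowest there, while Apoa1 (5361 CPM) was not and Serpina1a (5273 CPM) was highest. Kupffer cell markers were highest in that library (322 CPM, against 123 to 172), and the part of either list in the members was not tested. Without knockout replicate 2 the liver median was -0.06, with 54 of 81 members below 0 and 2 with an unadjusted p under 0.05. The last count was also lower without wild-type replicate 1 (2), wild-type replicate 2 (5) or knockout replicate 1 (3), and was 15 without knockout replicate 3. In these fits the share of all genes was 2.87% without knockout replicate 2, 3.11%, 2.46% and 3.05% in the order named, and 7.23% without knockout replicate 3. In brain, leaving out wild-type replicate 3 gave a median of -0.05 and 62 of 84 members below 0. That library had the highest summed oligodendrocyte markers (4434 CPM, against 1280 to 2332), whose part was not tested. Leaving out a library can only add genes whose ranges do not overlap. The brain count of members lower without overlap was then 32 without wild-type replicate 1 (7.57% of all genes), 28 without wild-type replicate 2 (8.57%), 29 without knockout replicate 1 (7.25%) and 23 without knockout replicate 2 (6.38%).

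Among single members in liver, Atp5e, the epsilon subunit of F1, had the smallest p. It measured 36.6, 32.7 and 30.0 CPM in the wild-type libraries and 26.3, 23.3 and 25.2 CPM in the knockout libraries. The ranges do not overlap (log2 fold change -0.40, SE 0.10, unadjusted p = 0.0044, adjusted p = 0.992 by edgeR). Cox6a1 measured 139, 124 and 138 CPM in wild type and 120, 100.2 and 105 CPM in the knockout (-0.30, SE 0.09, adjusted p = 0.992). Ndufb11, an accessory subunit of complex I on the X chromosome, measured 66.9, 54.6 and 62.7 CPM against 52.5, 48.8 and 51.0 CPM (-0.27, SE 0.09). Uqcrfs1 measured 119, 113 and 112 CPM against 98.0, 82.9 and 102 CPM (-0.27, SE 0.10). All 4 had knockout libraries below every wild-type library, and none passed after adjustment. On the other side, Ndufb4c had 0.17 (SE 0.08), Ndufs8 0.14 (SE 0.10), Ndufa12 0.16 (SE 0.12) and Ndufa8 0.09 (SE 0.07).

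In brain the members with the smallest p were Ndufa2, Ndufs5, Ndufb11 and Ndufa9, all of complex I. Ndufa2, an accessory subunit, measured 13.7, 13.5 and 14.5 CPM in wild type and 12.4, 11.3 and 12.1 CPM in the knockout, without overlap (-0.22, SE 0.10, unadjusted p = 0.0664, adjusted p = 1.00 by edgeR). In liver it measured 35.1, 28.9 and 28.2 CPM against 24.6, 27.7 and 27.8 CPM (-0.19, SE 0.12, adjusted p = 0.992 by edgeR). Ndufa2 lies on the same chromosome as the deleted gene (chr18:36742332-36744557, minus strand, GRCm38), 57309 bases from the Vaultrc5 start. Its difference did not pass the test in either tissue. Ndufs5 had -0.18 (SE 0.09), Ndufb11 -0.18 (SE 0.10) and Ndufa9 -0.18 (SE 0.10). The highest were Cox6a2 (0.29, SE 0.26), Ndufa4l2 (0.19, SE 0.29), Atp5l (0.07, SE 0.11) and Cox8a (0.05, SE 0.12). Atp5l was below 0 without knockout replicate 1 (-0.04), and Cox8a without wild-type replicate 1 (-0.03) or knockout replicate 3 (-0.02).

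**Figure D5:**
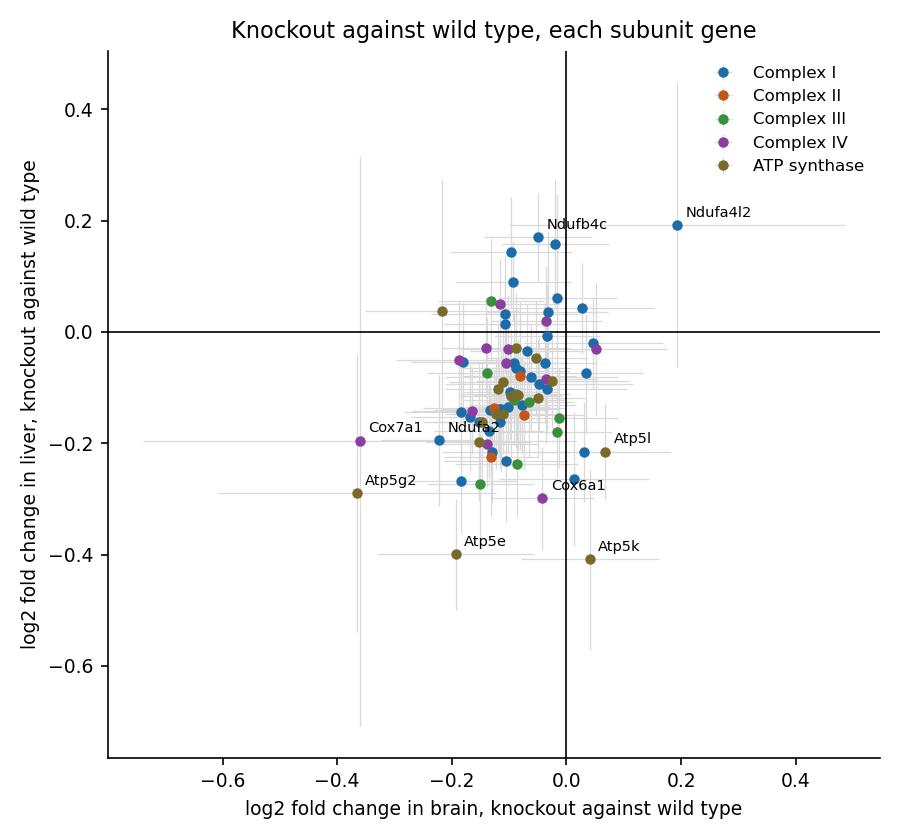
Log2 fold change of each member tested in both tissues, knockout against wild type, in brain (x axis) and in liver (y axis), coloured by complex, with standard errors in grey. Most points, 60 of 81, lie below 0 on both axes.

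The 2 tissues share no library. Of the 81 members tested in both, 60 were below 0 in each (74.1%, against 27.8% of the 13681 genes tested in both) and 2 above 0 in each. In brain alone 74 of 84 members were below 0 and in liver alone 67 of 81. A high share below 0 in each follows from these counts, so it does not measure agreement between the tissues. The 7 members lower without overlap in each tissue were Cox4i1, Ndufa13, Ndufa2, Ndufb11, Ndufs3, Ndufv1 and Uqcrfs1, which is 46.7% of the brain list and 25.9% of the liver list. Set beside these, 33.3% of all members tested were lower without overlap in liver and 17.9% in brain. The overlap of the lists was not tested. Of all genes tested in both tissues 0.278% were lower without overlap in each, which is 11.1% of such genes in brain and 4.93% in liver. Ndufs3 and Ndufv1 are core subunits of complex I. Across the 81 members, Pearson's r of the log2 fold changes was 0.30 and Spearman's rho 0.30 (Pearson's r over all genes tested in both, 0.07), a description across genes that share libraries. Whether same-numbered libraries of the 2 tissues are from 1 animal is not given in the labels.

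The interaction, the knockout effect in liver minus that in brain, had its smallest p for Atp5k, a small membrane subunit of ATP synthase (-0.47, unadjusted p = 0.0465, adjusted p = 1.00 by edgeR). It measured 23.2, 19.2 and 15.1 CPM in wild-type liver and 13.8, 14.2 and 15.03 CPM in knockout liver. In brain it measured 9.47, 11.2 and 10.8 CPM in wild type and 11.6, 10.2 and 10.7 CPM in the knockout. The liver groups do not overlap and the brain groups do. Its p was not under 0.05 without brain wild-type replicate 1 or 3, brain knockout replicate 1 or 2, liver wild-type replicate 1 or liver knockout replicate 2 or 3. Cox6a1 (-0.28), Atp5l (-0.30) and Ndufs4 (-0.27) came next by p, and Ndufb4c (0.20), Ndufs8 (0.22), Ndufa8 (0.16) and Uqcrb (0.17) were the members on the other side with the smallest p. Over all members, 53 of 84 were below 0 in the interaction, 34 without liver knockout replicate 2, and 50.8% of all genes were.

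Isoform shares are given by genotype as values, because an exact test of 3 against 3 cannot go below p = 0.1 and so none could pass 0.05. Cox6a2 made up 1.90%, 1.64% and 1.54% of Cox6a in knockout brain, above the 1.28% to 1.39% of wild-type brain (exact permutation p = 0.1, two-sided, the smallest possible, 0.9 adjusted over 9 shares). It rests on 23, 23 and 22 counts against 17, 22 and 21. The other 8 shares in brain and all 9 in liver had exact p of 0.3 or above. Striated muscle markers, which could carry Cox6a2, Cox7a1 and Cox8b, summed to 4.69 to 7.99 CPM in wild-type brain and 6.83 to 10.4 CPM in knockout brain (8 markers). Of these, Ckm, Tnnc2 and Mb were at or under 3 counts in every wild-type brain library. Parvalbumin interneuron markers (4 markers) summed to 380 to 877 CPM in wild-type brain and 419 to 859 CPM in knockout brain. The part of either list in Cox6a2 was not tested. In liver the striated muscle markers were at most 0.338 CPM except in knockout replicate 3 (4.77 CPM), where Cox6a2 was at 0.

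Other lists gave 0 called genes in each tissue for the knockout comparison. In liver, 10 of the 13 mitochondrial DNA-encoded subunits had values above 0 (median 0.14), where the nuclear members lay mostly below 0; the difference between the lists was not tested. In brain 11 of 13 were below 0 (median -0.08). The smallest p of that list in liver belonged to mt-Co3, a core subunit of complex IV (388 ± 41.1 CPM in wild type and 221 ± 92.9 in the knockout, adjusted p = 0.992 by edgeR). The mobile carriers and neighbouring genes had medians of -0.05 in liver (5 of 8 below 0) and -0.10 in brain (7 of 8), and the other inputs to ubiquinone -0.13 in liver (6 of 7) and -0.03 in brain (5 of 7). Cycs, the electron carrier cytochrome c, measured 49.2 ± 3.79 CPM in wild-type liver and 58.1 ± 5.27 in knockout liver (adjusted p = 0.992 by edgeR). Of 45 assembly factors 29 lay below 0 in liver (median -0.04) and 31 in brain (median -0.05), the citric acid cycle list had medians of 0.02 in liver and -0.09 in brain, and the regulators 0.02 and 0.04.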

How the data were processed

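Total RNA of brain and liver from 12 libraries was depleted of ribosomal RNA and made into stranded single-end libraries, per the labels. The authors deposited expected counts per gene, neither normalized nor pooled; between 5.06% and 5.71% of values per library are not whole. The submitters' processing notes name cutadapt, STAR and mm10; how reads were counted, and whether by strand, is not given in the sources used here. Counts were rounded and tested with edgeR 4.0.16 (limma 3.58.1, R 4.3.3): quasi-likelihood F-test with robust fit, TMM, filterByExpr with a minimum count of 10 and minimum total of 15, and Benjamini-Hochberg over all genes tested, threshold 0.05. Each comparison used its own 6 libraries, the interaction all 12. Standard errors are the log2 fold change over the root of F. CPM use TMM over 12 libraries, RPKM the union of exons (GENCODE M21). Medians by library use a pseudocount of 0.1 CPM. All 55450 identifiers matched the annotation. The scripts were tested on simulated data.

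Groups and replicate numbers come from the labels. Same-numbered knockout and wild-type liver libraries deviated together (r = 0.27, 0.24 and 0.32 over 13797 genes), a hint of pairing from the data and not the labels; the printed tests are unpaired, with the replicate block as an alternative. Alternatives were DESeq2 1.42.0, DESeq2 size factors, library totals, other filters, all 12 libraries in 1 fit, the replicate block, other gene lengths and leaving out each library.

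The members and all lists were chosen with earlier results of these data known. Named were all isoforms, the 3 highest members of each complex, the 5 largest called members per direction and those not called between tissues, and the 4 smallest p per direction for the knockout. Ndufa2 in liver, the role groups, and the 7 members lower in each tissue were named after their values were seen. Floors are 3 counts.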

Additional observations from a re-analysis of the deposited data

How the results depend on the processing

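Counts of 0 called members for the knockout in brain, in liver and in the interaction held under all alternatives run. Between tissues, library totals gave 40 members lower and 6 higher in wild type (median -0.28) and 31 and 7 in the knockout (median -0.21), against 76 and 2 in each. With them, 20 of 83 members in wild type and 22 of 83 in the knockout went from below 0 to above 0. Among the members chosen for naming between tissues these were Ndufb2 (0.75 in wild type, 0.81 in the knockout), Cox8a (0.63, 0.75), Ndufa4l2 (0.25, 0.28), Cox7a1 (0.72, 0.58) and Cox4i1 (0.17, 0.27). Cox7a2 (0.0331) and Atp5g2 (0.033) did so in wild type only, and Cox6a1 (0.0894) in the knockout only. Members named in other comparisons did so too, among them Ndufs5 (0.28, 0.20) and Ndufa12 (0.21, 0.065). Without the filter on low counts 5 members were higher in wild-type brain (31.0% of all genes), and the distance from the median of all genes was -1.70 in wild type and -1.62 in the knockout. With a minimum mean of 1 CPM 0 were higher in each genotype, because the isoforms concerned were no longer tested. With the longest transcript as length, the difference in share was -1.83 percentage points for complex II and -3.73 for complex III in wild type, and -3.64 for complex III in the knockout.

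Leaving out 1 library at a time changed the sign of 25 of 84 members in brain, 25 of 81 in liver and 48 of 84 in the interaction in at least 1 fit, and of 0 and 2 in the tissue comparisons. It gave 34 to 64 members below 0 in the interaction, and a distance from the median of all genes between -1.41 and -1.26 for the tissue comparison in the knockout. Among the members chosen for naming in each comparison, the ranges of those whose sign changed were -0.0368 to 0.14 for Atp5l and -0.0289 to 0.16 for Cox8a in brain. For knockout brain against knockout liver they were -0.17 to 0.25 for Atp5s and -0.69 to 0.35 for Cox7a1. The causes were not tested.

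With the replicate block, 0 members were called in brain and 0 in liver, the median was -0.10 in brain and -0.11 in liver, and the tissue counts stayed at 76 lower and 2 higher in each genotype, so the block changed no call. In liver 13 members then had an unadjusted p under 0.05 (6.41% of all genes) and in brain 1 (2.25%). Same-numbered brain libraries deviated together for replicates 1 and 2 (r = 0.62 and 0.65, against -0.66 and -0.62 for the crossed numbers). Replicate 3 had 0.01 and did not correlate best with its own number. Whether the numbers mark pairs in brain is not given in the labels.

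Depth limits the minor isoforms, which rest on few counts, and 3 libraries a group limit the knockout comparison: the median standard error of a member was 0.10 on the log2 scale in each tissue.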

Other observations

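Ndufb1-ps carries a pseudogene symbol and the annotation type of a long non-coding RNA, so the rule on symbols left it out, but it was not silent. Brain libraries gave 466, 519 and 530 counts (wild type) against 421, 460 and 438 (knockout). Liver libraries gave 839, 917 and 711 counts (wild type) against 755, 769 and 650 (knockout). The other 8 genes dropped for -ps had at most 8.83 counts in any library.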
